A study of Arabidopsis thaliana with 18 samples.

Results

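AOP1 (locus AT4G03070) was followed in leaf blades and petioles of Arabidopsis thaliana under 3 light treatments. It was represented by 1 of the 22810 probe sets in the table, the only one whose single annotated gene is AOP1, and is 1 of 13350 genes with a probe set of their own. The gene was chosen by its ratios in D against WL, which were low, so its differences between dark-kept and white-light leaves are given as a description, with no test. The plants were 19 days old, raised at 22 °C without a dark period, and the labels name no mutant or transgene. They then received a far-red pulse and 2 h of darkness (FRD), 2 h of darkness alone (D), or 2 h more of white light (WL). RNA came from blades and petioles of rosette leaves 3 and 4, prepared separately, and each of the 6 groups holds 3 Affymetrix arrays, 18 in all.

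AOP1 belongs to the 2-oxoglutarate-dependent dioxygenases, enzymes that use iron and oxygen to oxidise small molecules. It sits in a cluster with AOP2 and AOP3, which modify the side chains of methionine-derived glucosinolates, the sulfur-rich defence compounds of the cabbage order. AOP2 makes the alkenyl forms and AOP3 the hydroxyalkyl forms, while the substrate of AOP1 is not established. Far-red light turns phytochrome, the red-light receptor, to its inactive form, so FRD against D asks what the pulse adds to darkness.

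The deposited values are ratios, since the WL arrays of a tissue have a median of exactly 1 for all 22810 probe sets. They carry no level, so AOP1 could not be compared between blade and petiole in WL, its signal over background is unknown, and the tissue labels could not be checked with marker genes. Array medians lay between 0.936 and 1.02. Division by the WL median narrows the WL arrays by construction. Their 75th percentiles ran from 1.01 to 1.10, against 1.27 to 1.38 in dark arrays. Quantile normalization and aligned 75th percentiles, used below as processing alternatives, remove this gap. In comparisons with WL they therefore cannot judge a call, and calls lost or gained under them are given as values only. Quantile normalization ran over all arrays, and the fit shares 1 spread, so the widened WL arrays also enter the error of FRD minus D. In blades, 566 probe sets had an unadjusted p under 0.05 (limma) in FRD minus D with it. There were 1723 as fitted and 1708 with median centring. Calls in FRD minus D lost with quantile normalization are likewise values only. The number of arrays limits the precision. In whole-tissue RNA, fewer expressing cells and less RNA per cell cannot be told apart.

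In blades, the AOP1 ratios were 0.284, 0.243 and 0.173 in FRD, 0.269, 0.322 and 0.137 in D, and 1, 0.884 and 1.188 in WL, for replicates 1, 2 and 3. In petioles, they were 0.289, 0.371 and 0.274 in FRD, 0.258, 0.234 and 0.186 in D, and 1, 1.121 and 0.993 in WL. All 12 arrays of dark-kept leaves lay below all 6 WL arrays, and the highest dark value was a petiole FRD array. Replicate 3 had the lowest AOP1 ratio in each of the 4 dark groups. The array medians of replicate 3 were 0.946 in blade FRD, 0.937 in blade D, 0.998 in petiole FRD and 0.989 in petiole D.

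**Figure D1:**
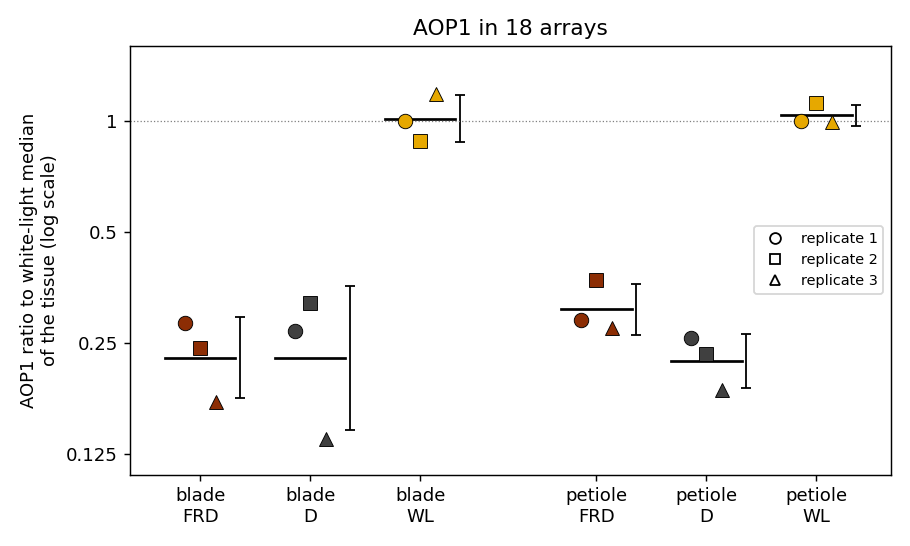
AOP1 ratio to the white-light median of its tissue on a log axis, in 18 arrays. Points are arrays with the shape giving the replicate, lines are means of log2 values and side bars are ± 1 SD (n = 3). The 12 dark arrays lie between 0.137 and 0.371, below every WL array.

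The mean ratio in blades was 0.233 ± 0.056 in FRD, 0.243 ± 0.095 in D and 1.02 ± 0.15 in WL (SD, n = 3 each). In petioles it was 0.311 ± 0.052 in FRD, 0.226 ± 0.037 in D and 1.04 ± 0.07 in WL (SD, n = 3 each). The 4 dark means lay close together, and their order from the lowest was petiole D, blade FRD, blade D and petiole FRD. Neighbouring means in that order differed by less than 1 SD of one of the groups.

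On the log2 scale, AOP1 in blades was -2.16 ± 0.28 for D minus WL (SE of the limma fit), a level 4.46-fold lower, or 22.4% of WL. In petioles the D minus WL difference was -2.21 ± 0.28, which is 4.63-fold lower, or 21.6% of WL. The petiole difference minus the blade difference was -0.05 ± 0.39, with a 95% interval of -0.90 to 0.79. Among all 22746 non-control probe sets, D minus WL of AOP1 was the 184th lowest in blades and the 140th lowest in petioles. This place follows from the choice of the gene.

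FRD minus WL uses the same WL arrays. AOP1 was 4.45-fold lower in blades (log2 difference -2.15) and 3.36-fold lower in petioles (log2 difference -1.75). These are 22.5% and 29.8% of WL, and the ranks from the lowest were 226 in blades and 348 in petioles.

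FRD against D did not enter the choice of AOP1, though the D arrays did. A choice for low D values can raise FRD minus D, by an amount that was not tested. The tests of FRD minus D below are therefore not free of the choice. In blades, FRD minus D was 0.0029 ± 0.28 on the log2 scale, with a 95% interval of -0.60 to 0.60 (limma, Benjamini-Hochberg adjusted p = 1.0). This interval spans 0.662-fold to 1.52-fold, so changes of that size were not detectable with these arrays. In petioles, FRD minus D was 0.46 ± 0.28, or 1.38-fold, with an interval of -0.14 to 1.06 (limma, adjusted p = 0.784). All 3 petiole FRD arrays lay above all 3 petiole D arrays, but the difference did not pass the test. The interval runs from 0.910-fold to 2.09-fold. Of all probe sets, 85.6% had a lower FRD minus D value in petioles, and 54.0% in blades.

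Averaged over both tissues, FRD minus D of AOP1 was 0.23 ± 0.20, with an interval of -0.19 to 0.66 (limma, adjusted p = 0.835). An exact two-sided permutation test over the arrays within tissues gave p = 0.34, where 0.005 is the smallest it can give. The petiole difference minus the blade difference was 0.46 ± 0.39 (interval -0.39 to 1.31, limma, adjusted p = 1.0), so a tissue difference in the pulse response was not shown. The blade value turned on single arrays: without blade D replicate 3 it was -0.36 (limma, adjusted p = 0.689). Pooled over the groups, AOP1 varied about as much between replicates as other probe sets: its residual SD was 0.348 log2, against a median of 0.326. By group its log2 SD was 0.65 in blade D and 0.37 in blade FRD, but 0.24 in petiole D and 0.23 in petiole FRD (n = 3 each). The fit gives all groups 1 spread, so its SE does not follow these differences.

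**Figure D2:**
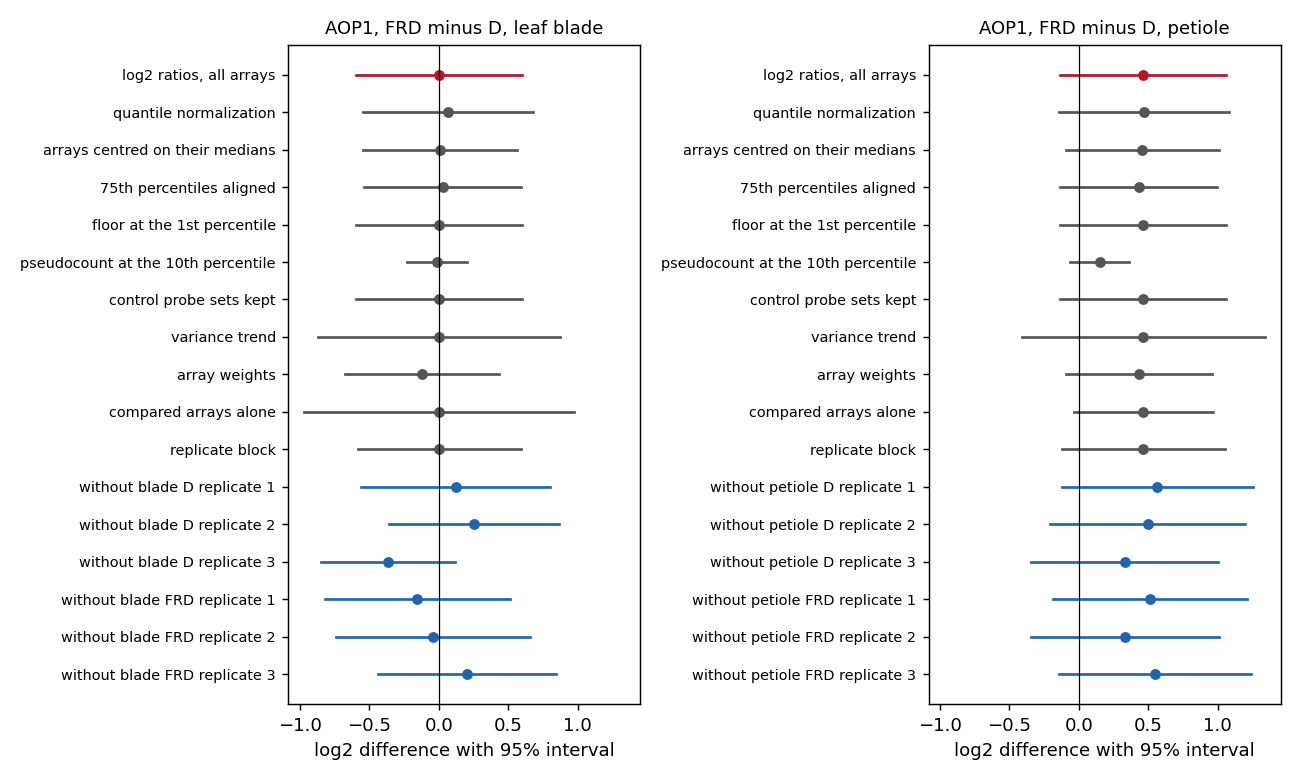
Log2 difference FRD minus D of AOP1 with its 95% interval, in blades on the left and petioles on the right, for the log2 ratios of all arrays (red), processing alternatives (grey) and fits that leave out 1 array (blue). All intervals shown include 0; blade estimates run from -0.36 to 0.25 and petiole estimates are all above 0.

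A control probe set for large-subunit ribosomal RNA moved with the blade groups. Its mean log2 ratio in blades was 0.34 ± 0.25 in FRD, 0.97 ± 0.20 in D and -0.08 ± 0.22 in WL (SD, n = 3 each). In petioles it was 0.15 ± 0.36 in FRD, 0.05 ± 0.26 in D and -0.05 ± 0.10 in WL. The actin, GAPDH and ubiquitin control probe sets had mean log2 ratios from -0.41 to 0.18 in blade D. The part of any control in the AOP1 values was not tested.

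In the RefSeq gene order (assembly TAIR10.1), AOP2 lies between AOP3 and AOP1. AOP2 had no probe set with a single annotated gene, so no value of it is given. AOP3 had blade ratios of 0.645, 2.338 and 1.733 in FRD, 1.722, 3.136 and 0.14 in D, and 0.180, 2.309 and 1 in WL. Its petiole ratios were 0.807, 0.757 and 1.856 in FRD, 0.668, 0.776 and 0.124 in D, and 1.130, 0.787 and 1 in WL. The groups overlapped widely in blades, and the residual SD of AOP3 was 1.47 log2. D minus WL of AOP3 was 0.29 in blades (limma, adjusted p = 0.923) and -1.26 in petioles (limma, adjusted p = 0.639), neither past the threshold of 0.05. The 95% intervals were wide, -2.15 to 2.73 in blades and -3.7 to 1.17 in petioles. Whether the AOP1 probes also bind AOP2 or AOP3 transcripts was not tested.

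AOP3 and AT4G03040 before AOP1, and AT4G03090 and AT4G03100 after it, were the nearest genes with a probe set of their own. None of these 4 passed the test in D minus WL or FRD minus D in either tissue, and none reached an unadjusted p under 0.05 (limma). Of all probe sets, D minus WL called 6.7% higher and 4.47% lower in blades, and 3.45% and 2.15% in petioles. FRD minus D called 0.558% and 0.0923% in blades, and 0.879% and 0.215% in petioles. D minus WL of the 4 ran from -1.155 to 0.29 in blades and from -1.45 to 1.93 in petioles, so an absence of change was not shown. Their residual SDs ran from 0.909 to 1.53 log2, above that of AOP1.

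Of 75 listed genes of glucosinolate synthesis, regulation, transport and sulfur supply, 12 had a probe set of their own, none of them among 7 genes of indole side-chain modification. In D minus WL, AT2G25450, listed with the side-chain genes, fell by 1.04 in petioles (limma, adjusted p = 0.016). It was 1 of 12, where 3.45% of all probe sets were called higher and 2.15% lower. In blades 0 of 12 were called, against 6.7% of all probe sets higher and 4.47% lower, with 3 of 12 at an unadjusted p under 0.05 (limma). The list's median log2 difference was -0.22 in blades and -0.19 in petioles, against -0.02 and -0.0044 over all probe sets. AOP1, at -2.16 and -2.21, lay below the lowest member in both tissues, which stood at -0.59 in blades and -1.26 in petioles. AOP1 was chosen for low ratios in this comparison and the list was not, so its place below them is no result.

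AT2G25450 had petiole ratios of 0.545, 0.281 and 0.472 in FRD, 0.521, 0.529 and 0.412 in D, and 1.013, 1 and 0.965 in WL. The D arrays lay below the WL arrays. In blades its D ratios of 1.120, 0.977 and 0.774 overlapped the WL ratios of 0.913, 1 and 1.135. The call in petioles was lost without petiole WL replicate 1, petiole WL replicate 2 or petiole D replicate 3, with adjusted p-values of the leave-one-out limma fits from 0.0362 to 0.0736.

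In FRD minus D averaged over both tissues, GTR1, a glucosinolate transporter, fell by 0.84 ± 0.15 (limma, adjusted p = 0.0097). Its ratios in blades were 0.506, 0.361 and 0.467 in FRD and 1.014, 0.694 and 0.779 in D. In petioles they were 0.476, 0.359 and 0.647 in FRD and 0.763, 0.980 and 0.756 in D. All 6 FRD arrays lay below all D arrays of their tissue, while AOP1 did not pass the test in this comparison. GTR1 was 1 of 12 called, against 1.24% of all probe sets higher and 0.378% lower. Its call was lost with quantile normalization (limma, adjusted p = 0.314) and with the compared arrays alone (limma, adjusted p = 0.0615).

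In each tissue by itself, FRD minus D called 0 of 12 in blades, against 0.558% of all probe sets higher and 0.0923% lower, with 1 at an unadjusted p under 0.05 (limma). In petioles it called 1 of 12, against 0.879% of all probe sets higher and 0.215% lower. That was MYC4, a transcription factor of jasmonate signalling and glucosinolate regulation, which fell by 1.02 (limma, adjusted p = 0.043). This call was kept in 1 of the 6 fits that left out a petiole array, where adjusted p-values ran from 0.049 to 0.222. None of the 12 was called higher in any of these comparisons.

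FRD minus WL, which shares its WL arrays with D minus WL, called 1 of 12 lower in blades (GTR1), where 6.41% of all probe sets were called higher and 4.74% lower. It called 4 of 12 lower in petioles (AT2G25450, AT2G31790, MYC4 and GTR1), where 4.44% were called higher and 3.87% lower. The 4 petiole differences ran from -1.25 to -1.06, a smaller size than the -1.75 of AOP1, which was chosen for low ratios against the same WL arrays.

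**Figure D3:**
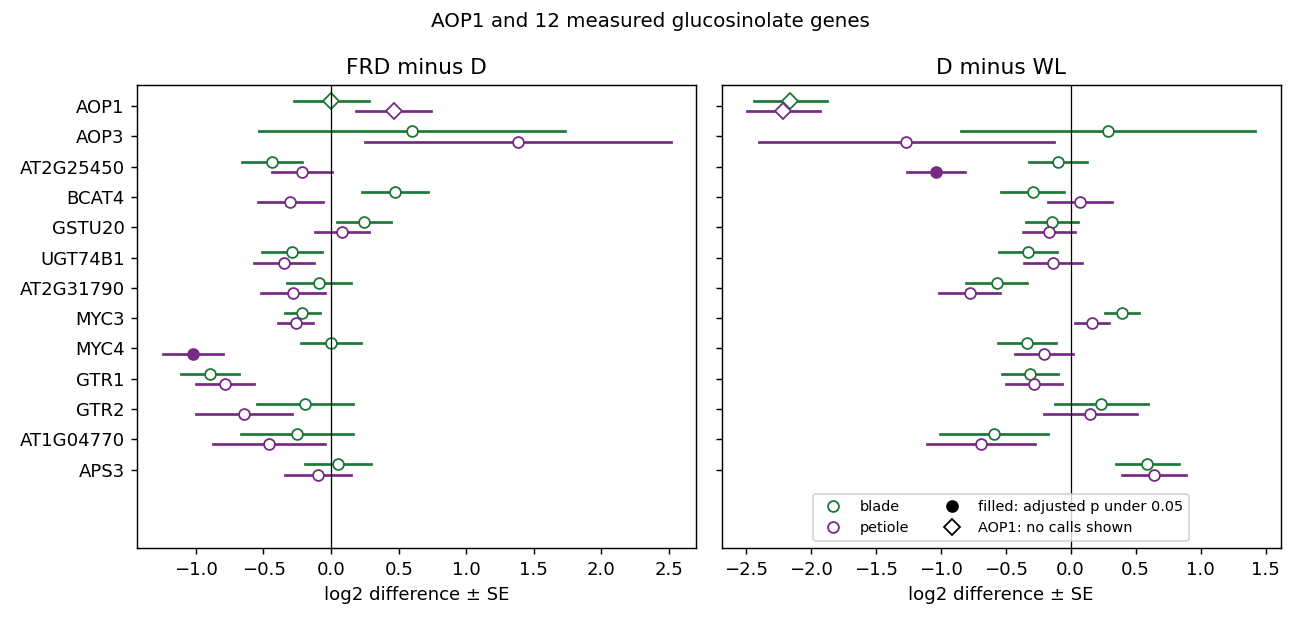
Log2 differences with their SE for AOP1 (diamonds) and the 12 measured glucosinolate genes (circles), FRD minus D on the left and D minus WL on the right. Filled symbols passed the limma test at an adjusted p under 0.05. AOP1, chosen for its low values in D minus WL, lies farthest to the left there, at -2.16 and -2.21.

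Of 5 dioxygenases known by a symbol, 0 were called lower in D minus WL, where 4.47% of all probe sets were called lower in blades and 2.15% in petioles. At such shares, 0 of 5 says little about the group. The differences of 0 of 5 were negative in blades, and of 3 of 5 in petioles. This group of 5, AOP3, JRG21, 2A6, F6'H1 and PAHX, was put together from annotation symbols. Genes known by locus code alone did not enter it, among them AT2G25450, which was called lower in petioles in D minus WL. PAHX, a phytanoyl-CoA hydroxylase, rose by 0.53 in blades (limma, adjusted p = 0.0079), 1 of 5 called where 6.7% of all probe sets were called higher and 4.47% lower. This call was lost with quantile normalization (adjusted p = 0.547), aligned 75th percentiles (0.239) and the compared arrays alone (0.151), all in limma. JRG21, a jasmonate-regulated oxygenase, had D minus WL values of 2.14 in blades (adjusted p = 0.167) and 2.79 in petioles (adjusted p = 0.098), both uncalled by limma. 2A6 stood at 0.13 in blades (limma, adjusted p = 0.757) and -0.61 in petioles (limma, adjusted p = 0.085). F6'H1, of coumarin synthesis, stood at 0.36 in blades (limma, adjusted p = 0.795) and -0.26 in petioles (limma, adjusted p = 0.888). In FRD minus WL, PAHX rose by 0.47 in blades (limma, adjusted p = 0.014), 1 of 5 called where 6.41% of all probe sets were called higher and 4.74% lower. This PAHX call was kept in 8 of 11 processing alternatives and 4 of 6 leave-one-out fits (limma, adjusted p up to 0.587 and 0.067). 2A6 fell by 0.90 in petioles in FRD minus WL (limma, adjusted p = 0.0103), 1 of 5 called where 4.44% of all probe sets were called higher and 3.87% lower. The 2A6 call was lost with quantile normalization (0.472), the compared arrays alone (0.0789) and without petiole WL replicate 2 (0.0533), as limma adjusted p-values.

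A group of 6 further genes was put together in the same way: CYP79A2, APS4, SIR, PYK10, NAI1 and NAI2. They stand around sulfur use and glucosinolate synthesis and breakdown. In D minus WL in blades 2 of 6 were called, both higher, where 6.7% of all probe sets were called higher and 4.47% lower. In petioles 0 of 6 were called in D minus WL, against 3.45% of all probe sets higher and 2.15% lower. FRD minus D in petioles also called 0 of 6, against 0.879% higher and 0.215% lower. SIR, the sulfite reductase of sulfur assimilation, rose in D minus WL in blades by 0.94 ± 0.15 (limma, adjusted p = 0.0016), the opposite sign to AOP1, and the call was lost with quantile normalization (0.2) and the compared arrays alone (0.102). NAI1, a transcription factor of endoplasmic reticulum bodies, rose by 1.95 in the same comparison (limma, adjusted p = 0.023). In FRD minus D in blades NAI1 fell by 3.18 (limma, adjusted p = 0.0069), where AOP1 stood at 0.0029. NAI1 was 1 of 6 called there, against 0.558% of all probe sets higher and 0.0923% lower. In petioles NAI1 stood uncalled at 1.51 in D minus WL (limma, adjusted p = 0.104) and -1.10 in FRD minus D (limma, adjusted p = 0.598). The D minus WL call of NAI1 was kept in 1 of the 6 fits that left out an array (limma, adjusted p from 0.0266 to 0.0783) and lost with quantile normalization (0.285) and the compared arrays alone (0.0521). Its FRD minus D call was kept in all 6 such fits and lost with quantile normalization (0.124) and the compared arrays alone (0.0657).

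Genes whose log2 ratios ran close to AOP1 over the 18 arrays were ranked by Pearson's r, and the highest 5 with a symbol and the highest 3 known by locus code alone are named. This is a description: the arrays share tissue, treatment and replicate number, and all 8 had lower group means in the dark than in WL. The genes with a symbol were TUA6, an alpha-tubulin (r = 0.919), CPUORF47 (0.909), CRR21, an editing factor of a chloroplast transcript (0.903), CRT1b, a calreticulin of the endoplasmic reticulum (0.902), and VTC4, a phosphatase of ascorbate synthesis (0.901). The genes known by locus code were AT1G60590 (0.945), AT3G30300 (0.941) and AT1G80850 (0.938). An r of 0.9 or more was found for 68 of 22743 probe sets, 0.299%. Of these, 34 have a single annotated gene, so other locus-code genes also ran closer to AOP1 than some of the genes with a symbol. D minus WL of the 8 named genes ran from -2.67 to -0.44 in blades and from -2.82 to -0.53 in petioles. FRD minus D of the 8 ran from -0.19 to 0.15 in blades and from -0.08 to 0.17 in petioles.

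Within groups the likeness was uneven. After the group means were taken away, r with AOP1 was 0.832 for AT1G60590 and 0.776 for TUA6, but 0.209 for CRR21 and -0.26 for VTC4. AT1G60590, at -2.67 in blades and -2.82 in petioles for D minus WL, was the one of the 8 with a difference larger than that of AOP1. Its replicate 3 was also the lowest of each dark group, at 0.115 in blade FRD, 0.0719 in blade D, 0.0847 in petiole FRD and 0.0641 in petiole D.

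**Figure D4:**
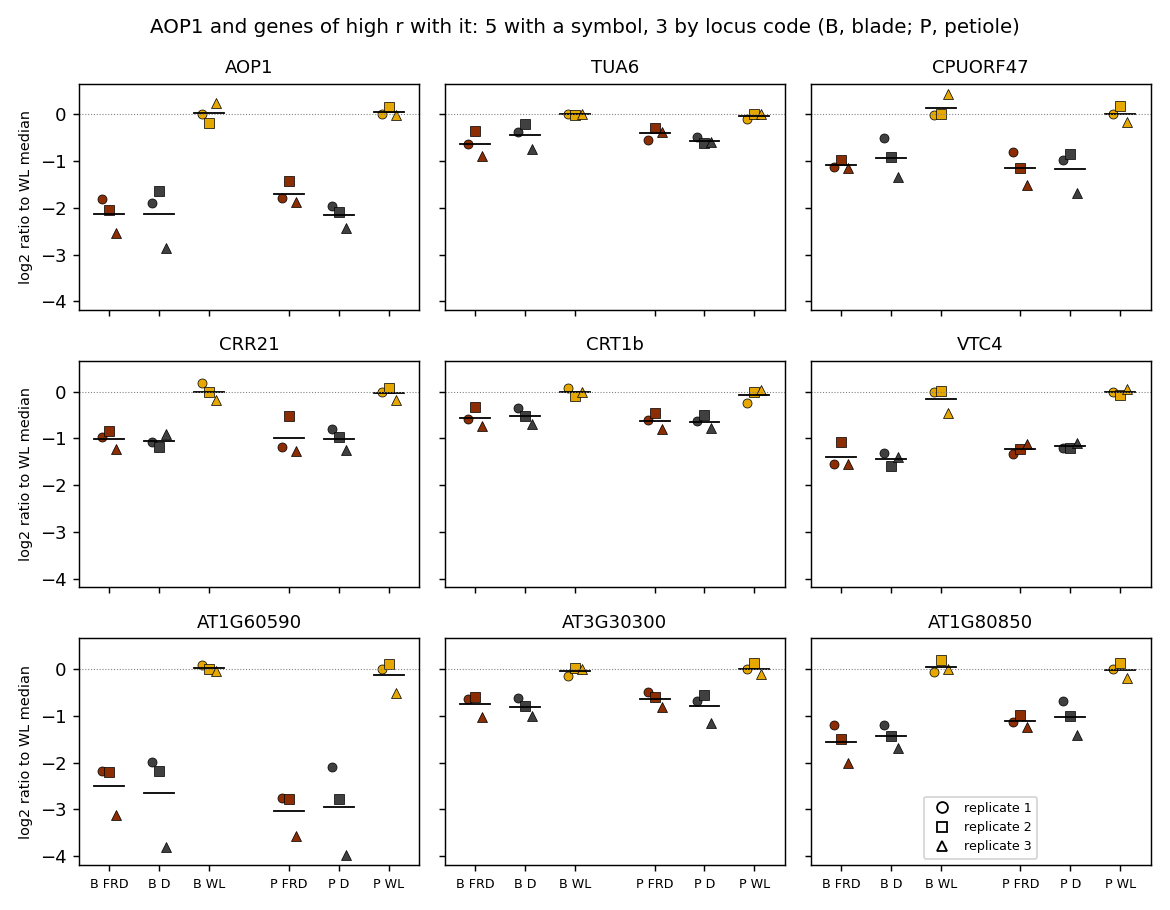
Log2 ratios of AOP1, the 5 genes with a symbol and the 3 genes known by locus code with the highest Pearson r to it in each class, by group, with 3 arrays each and lines at the means. In every panel the FRD and D means stand below WL, and AT1G60590 shows the low replicate 3 of AOP1 in all 4 dark groups.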

How the data were processed

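Values were the linear ratios the authors deposited for 18 arrays. That each probe set was divided by the WL median of its tissue was read from the values; summarization, background correction and scaling before it are not given in the sources used here. All arrays entered a single linear model of the log2 ratios with a mean for each group (limma 3.58.1, R 4.3.3, empirical Bayes moderation, two-sided tests). Benjamini-Hochberg adjustment ran over 22746 probe sets, 64 controls left out, with calls at an adjusted p under 0.05. The script was tested on simulated data. The series describes the arrays of a group as independent biological replicates.

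AOP1 and the lists were chosen with earlier results of these data known; the dioxygenases and the 6 further genes were assembled after the annotation was read. Named genes were AOP1, called list members (or up to 2 uncalled ones), the 5 genes with a symbol and 3 by locus code of highest r with AOP1, and up to 2 neighbours each side. A planned search for related proteins was not run. Genes were named from the platform annotation, 13436 of 13513 single-gene probe sets matched to RefSeq. Alternatives covered scaling, floors, a pseudocount, controls, variance model, arrays used, a replicate block and leaving out arrays.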

Additional observations from a re-analysis of the deposited data

How the results depend on the processing

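For AOP1, FRD minus D stayed uncalled in limma in every alternative tried. In blades its sign turned to -0.012 with 0.553, the 10th percentile of the ratios, as a pseudocount and to -0.12 with array weights, and leaving out single arrays gave -0.36 to 0.25. A floor at the same value gave no value for FRD minus D, because all 12 dark arrays lie under it. D minus WL was -0.88 in blades and -0.91 in petioles with that floor, and -0.99 and -1.03 with the pseudocount, both of which compress low ratios by construction. FRD minus WL was -0.88 in blades and -0.91 in petioles with the floor, -1.002 and -0.88 with the pseudocount, and -1.80 in blades with quantile normalization (the cause was not tested). Leaving out single arrays gave D minus WL of -2.41 to -1.79 in blades. The tissue difference of FRD minus D ran from 0.21 to 0.83 over the leave-one-out fits and reached the upper end without blade D replicate 3 (limma, adjusted p = 0.452).

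The counts of called glucosinolate genes were small and moved easily; the cause was not tested. FRD minus D in petioles (1 called) gave 0 with quantile normalization, median centring, aligned 75th percentiles, the floor, the pseudocount or the compared arrays alone, 2 with array weights, and 0 to 2 without single arrays. Its mean over both tissues (1) gave 0 with quantile normalization and with the compared arrays alone. D minus WL in blades (0) gave 2 with aligned 75th percentiles, 1 with array weights, and 0 to 1 without single arrays. D minus WL in petioles (1) gave 0 with quantile normalization or the compared arrays alone, 2 with aligned 75th percentiles or the floor, and 0 to 1 without single arrays. FRD minus WL in blades (1) gave 0 with quantile normalization, 4 with aligned 75th percentiles, 3 with the floor, and 1 to 2 without single arrays. FRD minus WL in petioles (4) gave 0 with quantile normalization, 7 with aligned 75th percentiles, 1 with the compared arrays alone, and 3 to 4 without single arrays.

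Aligned 75th percentiles lowered D minus WL by construction. The median of all probe sets was -0.35 in blades and -0.29 in petioles, against -0.02 and -0.0044. The share of higher among called probe sets was then 13.5% in blades and 13.4% in petioles, against 60.0% and 61.6% as fitted, with 5024 and 2907 called against 2542 and 1274. Quantile normalization called 160 and 84, and 32 and 33 in FRD minus D against 148 and 249, with 100% of these higher against 85.8% and 80.3%. In FRD minus WL, 187 and 183 were called with quantile normalization and 4643 and 4385 with aligned 75th percentiles, against 2537 and 1891; the higher share was 72.2% and 57.9%, then 14.7% and 12.8%, against 57.5% and 53.4%. In the mean FRD minus D, quantile normalization called 89 against 368, 96.6% higher against 76.6%.

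With the replicate number as a block, FRD minus D of AOP1 in petioles was 0.46 (limma, adjusted p = 0.625), still uncalled. Same-numbered arrays correlated by 0.0035 to 0.149 in their deviations from group means. In 13 of 18 pairs this was higher than with the other numbers. It was over 0.1 in 6 of 18 pairs, and the numbers were not taken as pairing in the main fit. Those 6 were all the pairs of replicate 3, at 0.111 to 0.149 in both tissues, and replicate 3 also held the lowest AOP1 ratio of each dark group; its part in the AOP1 values was not tested beyond the fits without single arrays. The signal over background is unknown, so depth limits could not be set for dim probe sets.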
